A study of Mus musculus with 6 samples.

Results

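Neat1, Malat1, Meg3, H19 and Gas5 are 5 long noncoding RNAs, 4 of them among the 18193 genes that have a probe set of their own on the arrays, and their signals were followed in gastrocnemius muscle of male C57BL/6J mice over 3 diets and 2 fasting times. Every probe set whose platform symbol is one of the 5 was taken. This gave 26 of 45037 non-control probe sets: 2 for Neat1, 7 for Malat1, 11 for Meg3, 4 for Gas5 alone, 1 annotated to both Snord47 and Gas5, and 1 annotated to both Mir675 and H19. H19 had no probe set of its own, so its values are those of the probe set it shares with Mir675. A gene is represented by whichever of its probe sets was brightest on average (mean log2 signal, 6 pools), and the others are shown beside it. Of the 26 probe sets, 20 passed the filter on low signal, and the 6 others were all Meg3 probe sets.

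Mice entered the study at 6 weeks of age and ate 1 of 3 diets for 15 weeks. The HF+SFC+ALA diet was a high-fat diet with 60 kcal% fat with 2 additives by weight: an iron salt, sodium ferrous citrate (SFC), at 0.023%, and the phosphate of 5-aminolevulinic acid (ALA), from which cells make heme, at 0.2%. The HF diet was the same high-fat diet without the additives, and the Control diet had 10 kcal% fat. Muscle was taken after 24 h or 4 h of fasting. Every combination of diet and fasting time was 1 pool of RNA on 1 array, so each group is a single measurement of a mixture, and how many animals went into it is not stated in the labels. Start age and diet length add up to 21 weeks, while the age label reads 21 months. With 1 array per combination, the fit was additive in diet and fasting time. Its p-values set a difference against a spread made of the 6 pools' departure from additivity and of a value borrowed from other genes. They do not measure the spread between animals.

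Long noncoding RNAs are transcripts without a long reading frame, and the 5 described here work in different ways. Neat1 is the scaffold of paraspeckles, nuclear bodies that hold RNA-binding proteins. Malat1 is an abundant nuclear RNA found at nuclear speckles, where splicing factors gather. Gas5 is a host gene of small nucleolar RNAs (snoRNAs), which lie in its introns and guide the modification of ribosomal RNA, while the spliced RNA itself is removed by nonsense-mediated decay. Meg3 and H19 are imprinted genes expressed from the maternal chromosome, in the Dlk1-Dio3 and H19-Igf2 domains, and H19 is the precursor of miR-675.

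On the GRCm38.p6 assembly, Malat1 lies at chr19:5795690-5802672 and Neat1 at chr19:5824708-5845480, with 22035 bases and 0 annotated genes between them. Gas5 lies at chr1:161034601-161038539, Meg3 at chr12:109540996-109571729 and H19 at chr7:142575530-142578146. All 5 are annotated as lncRNA genes.

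The deposited values are MAS5 signals on a linear scale, and the trimmed mean was 500.004 on every array. All 8 skeletal muscle fibre markers were above the filter, with a summed signal between 346726 and 399449. For the actin control, 3′ over 5′ signal was 1.52 in the HF pool at 4 h and 1.08 to 1.22 in the 5 other pools. For the Gapdh control it was 0.83 in that pool and 0.81 to 0.86 in the 5 others. The summed signal of 5 measured adipocyte markers was higher in HF pools (37023 at 24 h and 32800 at 4 h) than in Control pools (26925 and 22938), and 3 of the 5 rose with HF. These sums were mostly Fabp4 (31773 and 26497 in HF pools, 26207 and 21626 in Control pools). Fabp4 differed by 0.29 ± 0.081 (log2, adjusted p = 0.162 by limma). The 3 that rose were dimmer and differed more: Lep by 3.74, Adipoq by 2.63 and Cidec by 1.91. Of the fibroblast markers, 3 of 6 rose with HF, and of the smooth muscle markers 1 of 4 rose. No satellite cell, endothelial, macrophage, Schwann cell, erythroid or neutrophil marker passed the test between HF and Control, and Cd3e, a T cell marker, was at the floor in every pool. All 6 macrophage markers were still higher with HF, by 0.40 to 0.97 with a median of 0.62 (log2).

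Among the 4 members with a probe set of their own, 1 rose with fasting (Neat1) and 1 fell with HF (Gas5). In the fits over 11526 genes, 2.41% of genes passed an adjusted p of 0.05 between 24 h and 4 h, made up of 1.49% higher and 0.92% lower at 24 h. Between HF and Control 0.885% passed, made up of 0.564% higher and 0.321% lower with HF. Between HF+SFC+ALA and HF 0% passed by limma, and 5.08% had an unadjusted p under 0.05. In the fit over 22518 probe sets 1.47%, 0.449% and 0% passed in the same order of comparisons. Since the members were chosen with results in view, these counts describe them and support nothing further.

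**Figure D1:**
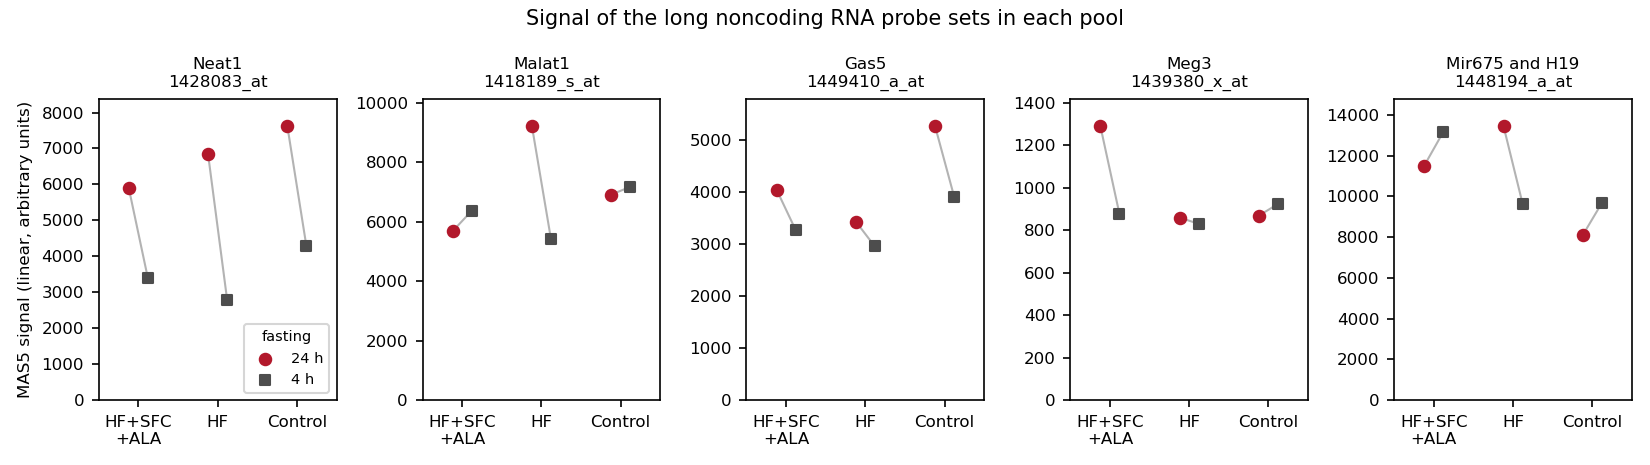
MAS5 signal (linear, arbitrary units, y axis) of 1 probe set per RNA in the 6 pools; diets run along the x axis, red circles are 24 h pools and grey squares 4 h pools, each point is 1 array, and grey lines join the pools of a diet. Neat1 was higher at 24 h on all 3 diets (5895, 6838 and 7618 against 3400, 2795 and 4286), and Malat1 was 9209 at 24 h against 5415 at 4 h on HF, with smaller differences on the other diets (5681 against 6365 and 6909 against 7172).

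Neat1 was higher after the longer fast on all 3 diets, about 2-fold by the fit to its brighter probe set, and no diet difference passed the test. Its brighter probe set (1428083_at) gave signals of 5895 on HF+SFC+ALA, 6838 on HF and 7618 on Control at 24 h, against 3400, 2795 and 4286 at 4 h. Every 24 h pool was above every 4 h pool, and the share of all probe sets separated this way is not given. The fitted difference was 0.97 ± 0.098 (log2, SE, 3 pairs), a 1.96-fold higher signal, with an adjusted p of 0.0025 by limma. Within the diets the log2 difference was 0.79 on HF+SFC+ALA, 1.29 on HF and 0.83 on Control. In bulk muscle a change in the number of cells of a type and a change in RNA per cell cannot be told apart. With fasting, 2 of 4 smooth muscle markers fell (Acta2 and Tagln, list median -0.45), 1 of 6 fibroblast markers fell (Col1a1, list median -0.07), and 0 of 5 adipocyte markers passed (list median -0.80). Summed smooth muscle signal was 7381 to 10771 in the 24 h pools, against 10013 to 13553 in the 4 h pools. Their part in the Neat1 difference was not tested.

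The dimmer Neat1 probe set (1442881_at) read 147, 172 and 117 at 24 h in the same order of diets, against 114, 103 and 65.3 at 4 h. It was higher at 24 h within each diet, by 0.65 on average, and did not pass on its own (adjusted p = 0.209 in the fit over 22518 probe sets). The groups did not overlap, but the 24 h Control pool, at 117, lay close to the 4 h HF+SFC+ALA pool, at 114. Of all probe sets, 20.2% were higher at 24 h in all 3 pairs, a looser condition than groups that do not overlap.

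Of the diets, the 2 Neat1 probe sets gave opposite differences between HF and Control. The brighter one had a log2 difference of -0.39 ± 0.12 with HF (adjusted p = 0.188), with -0.16 at 24 h and -0.62 at 4 h. The dimmer one was higher with HF, by 0.56 at 24 h and 0.65 at 4 h (adjusted p = 0.399). Without the Control or the HF pool at 24 h the brighter one was called lower with HF (-0.49, adjusted p = 0.0158, and -0.63, 0.0377). Without the HF or the Control pool at 4 h the difference was -0.15 (adjusted p = 0.474) and -0.28 (0.255). Between HF+SFC+ALA and HF it differed by 0.03 ± 0.12 (adjusted p = 0.993). The Neat1 call with fasting was lost without the filter on low signal (adjusted p = 0.334), with the mean over probe sets (0.0563) and without the intensity trend (0.28).

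Genes of paraspeckle proteins gave 1 call. Of 18 measured genes of this list, 1 rose and 0 fell with fasting. A positive difference was seen in 14, against 51.7% of all genes, and the median was 0.14, against 0.01 over all genes. The gene that rose was Ewsr1, an RNA-binding protein of the FET family, whose signal was 1633, 1536 and 2250 at 24 h on HF+SFC+ALA, HF and Control, against 1129, 1202 and 1339 at 4 h (log2 difference 0.54 ± 0.094, adjusted p = 0.0217). The core proteins were not called. Sfpq gave -0.30 ± 0.085 (adjusted p = 0.107), Nono 0.14 ± 0.098 (0.502) and Pspc1 0.14 ± 0.11 (0.593). The cleavage factor subunits Cpsf6 and Nudt21 gave -0.00 and 0.22. None of the 18 passed in either diet comparison.

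By the shape of its profile over the 6 pools, Neat1 lay nearest to Bcl7a, a subunit of SWI/SNF chromatin remodellers, with a root mean square distance of 0.081 log2 units. Fam214a followed at 0.146 and Kcnq1ot1, another nuclear long noncoding RNA, at 0.147. Bcl7a read 632, 697 and 777 at 24 h on HF+SFC+ALA, HF and Control, against 364, 337 and 459 at 4 h. The likeness is a description over 6 pools and carries no test.

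Malat1, the neighbour of Neat1 on chromosome 19, passed the test in no comparison. The brightest probe set (1418189_s_at) read 5681, 9209 and 6909 at 24 h on HF+SFC+ALA, HF and Control, against 6365, 5415 and 7172 at 4 h. The HF pool at 24 h was highest and the HF pool at 4 h lowest, and the 24 h and 4 h groups overlapped. The fasting difference was 0.18 ± 0.15 (adjusted p = 0.586), with -0.16 on HF+SFC+ALA, 0.77 on HF and -0.05 on Control. Without either HF pool it was -0.11, and without either HF+SFC+ALA pool 0.36. All 7 Malat1 probe sets had a higher mean at 24 h, by 0.15 to 0.61 with a median of 0.36, and 4 of 7 were higher in every pair. The mean over probe sets gave 0.35 (adjusted p = 0.324).

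The 7 Malat1 probe sets shared this shape. All 7 were highest in the HF pool at 24 h, as were 18.9% of all probe sets, and 6 of 7 were lowest in the HF pool at 4 h, as were 18% of all. Of all probe sets 4.01% were both. In the HF pair all 7 were at least 1.5-fold higher at 24 h, with log2 differences of 0.65 to 0.96, against 7.31% of probe sets. In the HF+SFC+ALA pair the 7 ran from -0.16 to 1.15, and in the Control pair from -0.33 to 0.22. The probe sets target 1 gene and are not replicates of a condition.

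The HF difference of Malat1 changed sign with fasting time. At 24 h all 7 probe sets were higher in HF than in Control, by 0.29 to 0.56, and at 4 h all 7 were lower, with differences of -0.65 to -0.19. Of all probe sets, 22.3% were lower with HF at 4 h and higher at 24 h. The fitted average for the brightest probe set was 0.00 ± 0.18 (adjusted p = 0.994). Each fasting time holds 1 pair of pools, so the change of sign was not tested. Between HF+SFC+ALA and HF the brightest probe set gave -0.23 ± 0.18 (adjusted p = 0.973), with -0.70 at 24 h and 0.23 at 4 h.

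The actin 3′ to 5′ ratio was 1.15 in the HF pool at 24 h, within the range of the 4 pools on the other diets, and 1.52 in the HF pool at 4 h, above it. The Gapdh ratio did not set the 4 h pool apart: it was 0.81 in the HF pool at 24 h and 0.83 at 4 h, against 0.84 to 0.86 on the other diets. The summed skeletal muscle fibre signal of these pools was 399449 and 346726, the highest and lowest of the 6. Their part in the Malat1 differences was not tested. Leaving out the 4 h HF pool gave a Malat1 HF difference of 0.44 with an adjusted p of 0.0478, and leaving out the 24 h HF pool gave -0.43 with an adjusted p of 0.126.

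**Figure D2:**
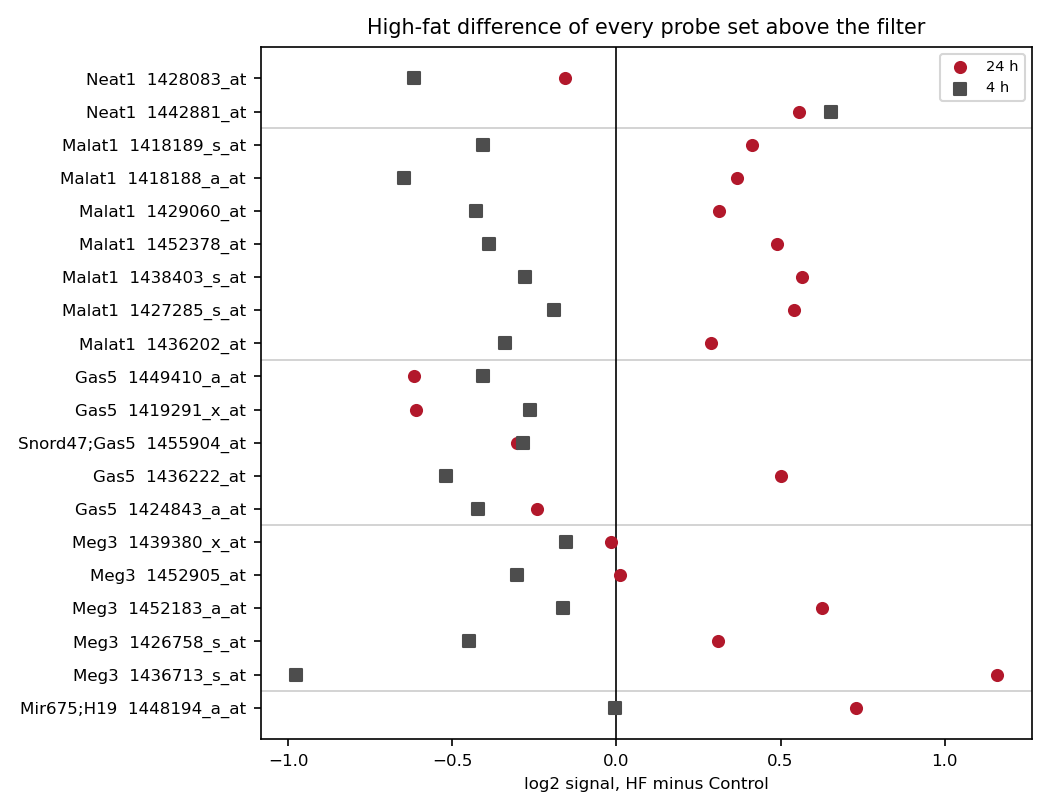
Log2 signal difference, HF minus Control (x axis), for the 20 probe sets above the filter (y axis, grouped by RNA); red circles are the 24 h pair and grey squares the 4 h pair, each point being 1 pair of arrays. All 7 Malat1 probe sets lie right of 0 at 24 h (0.29 to 0.56) and left of 0 at 4 h (-0.65 to -0.19), whereas 4 of 5 Gas5 probe sets lie left of 0 at both times.

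Speckle and SR splicing protein genes gave few calls. Of 23 measured, 2 rose with fasting and 0 fell. A positive difference was seen in 13, against 51.7% of all genes, with a median of 0.12. Sf3b1, a core subunit of the U2 snRNP, gave 0.44 ± 0.081 (adjusted p = 0.029), and Srsf5, an SR splicing factor, gave 0.40 ± 0.082 (adjusted p = 0.0456). Son, a scaffold protein of speckles, gave 0.13 ± 0.065 (adjusted p = 0.332). None of the 23 passed in either diet comparison. The genes nearest to Malat1 in profile were Wdr13 at 0.085 log2 units, Ctsf, a lysosomal cysteine protease, at 0.085 and Zfp692 at 0.095. Neat1 lay 0.44 from Malat1 and ranked 9968 in nearness to it.

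Gas5, the snoRNA host, fell with the high-fat diet. Its brightest probe set (1449410_a_at) read 3431 at 24 h and 2951 at 4 h in HF pools, against 5262 and 3910 in Control pools. Both HF pools were below both Control pools, and the share of all probe sets separated this way is not given. The fitted log2 difference was -0.51 ± 0.087 (2 pairs), 1.43-fold lower with HF, with an adjusted p of 0.0333. The pairs gave -0.62 at 24 h and -0.41 at 4 h.

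The other Gas5 probe sets had smaller differences of the same average sign. All 5 were lower on average with HF, from -0.51 to -0.01, and 4 of 5 were lower in both pairs, against 27.9% of all probe sets. The exception was 1436222_at, a dim probe set that was lower at 4 h (72.1 against 103) and higher at 24 h (155 against 109). None of the 5 passed in the fit over all probe sets, in which the brightest had an adjusted p of 0.0555. The Gas5 call was lost when any 1 of 4 pools was left out: HF+SFC+ALA at 4 h (adjusted p = 0.0824) or 24 h (0.0875), HF at 24 h (0.146) and Control at 24 h (0.0571). It was also lost without the filter (0.359), with the mean over probe sets (0.304), without the intensity trend (0.342) and without fasting time in the model (0.48), and adjusted p ran from 0.000641 to 0.48 over 15 alternatives.

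In HF+SFC+ALA pools Gas5 read 4045 at 24 h and 3272 at 4 h, above the HF pool at both times. The difference from HF was 0.19 ± 0.087 (adjusted p = 0.97), and 2 of 5 probe sets were higher on average. This comparison uses the same HF pools as the one with Control. With fasting, Gas5 was higher at 24 h on all 3 diets, by 0.31 on HF+SFC+ALA, 0.22 on HF and 0.43 on Control, but missed the threshold (0.32 ± 0.071, adjusted p = 0.0555). All 5 probe sets had a higher mean at 24 h.

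The summed adipocyte and fibroblast marker signals given above were higher in the HF pools in which Gas5 was lower. Fibroblast markers summed to 33675 at 24 h and 33036 at 4 h in HF pools, against 27021 and 27306 in Control pools. Macrophage markers, with no call, summed to 2994 at 24 h and 2549 at 4 h in HF pools, against 1770 and 1827. Their part in the Gas5 difference was not tested.

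The starts of Gas5 and of 3 other snoRNA hosts are shown because genes of this kind often begin with a run of pyrimidines, the terminal oligopyrimidine (TOP) motif, which ties their transcripts to growth signalling. Each line gives 50 bases from RefSeq (GRCm38.p6), 20 before and 30 from the annotated start, and capitals mark an unbroken run of at least 4 C or T that holds the first annotated base.
Gas5, first annotated start, chr1:161034581-161034630, plus strand: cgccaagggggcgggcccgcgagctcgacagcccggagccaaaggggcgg
Gas5, second annotated start, chr1:161035146-161035195, plus strand: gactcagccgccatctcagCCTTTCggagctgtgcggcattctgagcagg
Snhg12, chr4:132308658-132308707, plus strand: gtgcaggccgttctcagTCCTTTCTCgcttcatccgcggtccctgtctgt
Snhg8, chr3:123508307-123508356, minus strand: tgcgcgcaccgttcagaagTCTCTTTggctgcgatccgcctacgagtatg
2410006H16Rik, chr11:62602857-62602906, plus strand: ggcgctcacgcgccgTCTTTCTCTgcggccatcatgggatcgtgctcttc

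Such a run was present at the second Gas5 start and absent from the first. It was present in 14% of 32851 promoter windows and in 7 of the 17 genes of the host list that have one. A match is a description of these letters and not of a working motif. The mRNAs of the TOP list, mainly ribosomal proteins, gave 0 calls in 21 genes in every comparison, with medians of -0.01 for fasting and -0.05 for HF against Control.

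The other noncoding snoRNA hosts were mostly lower with HF. Of 20 listed genes 16 were on the array and 13 were above the filter. Between HF and Control 2 fell and 0 rose, 11 of 13 differences were negative, and the median was -0.45, against -0.00 over all genes. Snhg12 read 560 at 24 h and 338 at 4 h in HF pools, against 1130 and 516 in Control pools (log2 difference -0.81 ± 0.15, adjusted p = 0.042). 2410006H16Rik read 1395 and 1221 in HF pools, against 4583 and 2177 in Control pools (-1.27 ± 0.17, adjusted p = 0.014). The annotation used here gives 2410006H16Rik no role. Without it the list of 12 had 1 call and a median of -0.39.

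Hosts with and without a run at the start gave negative and positive differences, and of the 6 named next none passed. Snhg1, with a run, gave -0.81 ± 0.17 (adjusted p = 0.0676), and Snhg8, with a run, gave -0.45 ± 0.10 (0.0954). Zfas1, without one, gave -0.61 ± 0.15 (0.123), and Snhg16, without one, gave -0.71 ± 0.26 (0.266). Snhg7, with a run, gave 0.21, and Snhg14, without one, gave 0.25. The number of hosts that fell varied with the pools used: leaving out 1 pool gave 7 (Control, 4 h), 6 (HF, 4 h), 4 (Control, 24 h) and 1 for each of the 3 others. The 13 hosts were lower with HF in 12 cases at 24 h and 10 at 4 h, against 49.4% and 51.8% of all genes.

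With fasting 11 of 13 hosts had a positive difference, against 51.7% of all genes, with a median of 0.13. Snhg12 alone rose, by 0.86 ± 0.12 (adjusted p = 0.0105 by limma). Leaving out either HF+SFC+ALA pool left 0 hosts called, and leaving out any 1 of the 4 other pools gave 5. Between HF+SFC+ALA and HF 11 of 13 were positive, against 48.7% of all genes, with a median of 0.15, and 0 passed. The 24 h and 4 h pairs gave 11 and 8 higher, against 47.2% and 50.2% of all genes. With the 24 h HF pool left out 7 of 13 were positive, and with either Control pool left out 2 passed. These pools are shared with the comparison of HF and Control.

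**Figure D3:**
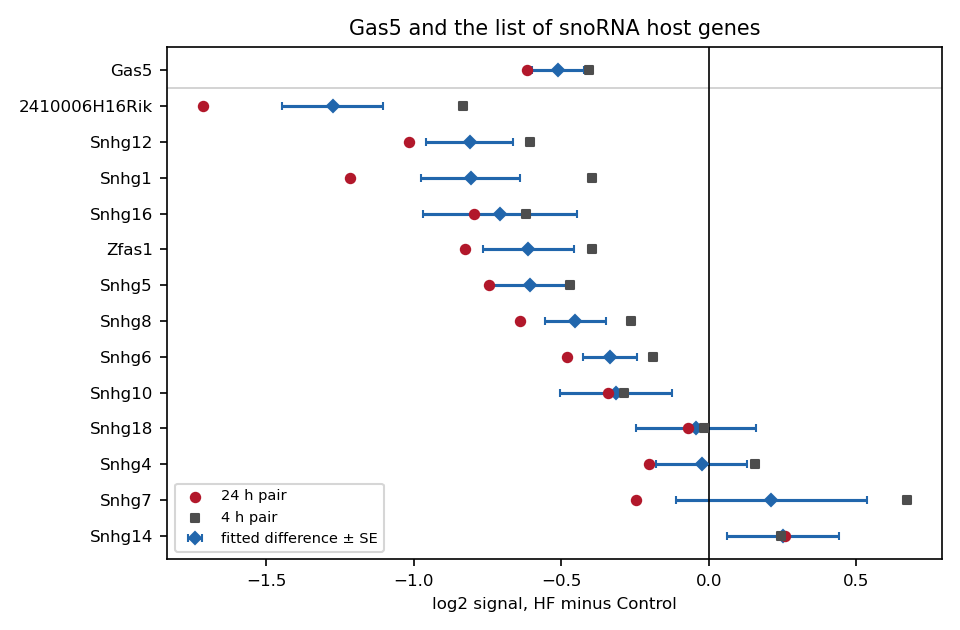
Log2 signal difference, HF minus Control (x axis), of Gas5 and of the 13 noncoding snoRNA hosts above the filter (y axis, ordered by difference below the line); blue diamonds are the fitted difference with its standard error, red circles the 24 h pair and grey squares the 4 h pair. Gas5 was at -0.51 and 11 of the 13 hosts lay left of 0, led by 2410006H16Rik at -1.27 and Snhg12 at -0.81.

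Factors of nonsense-mediated decay, the pathway that degrades spliced Gas5, gave 0 calls among 9 genes in every comparison. Upf1, its central helicase, differed by -0.18 ± 0.15 between HF and Control (adjusted p = 0.61). In human cells Gas5 RNA has been described as binding the glucocorticoid receptor, and a list of 16 targets of this receptor was followed. With HF 13 of the 16 differences were negative, with a median of -0.22, while 50% of all genes had a positive difference. Of the targets 1 fell and 1 rose by limma. Fbxo32, a ubiquitin ligase of muscle atrophy, fell (-0.74 ± 0.086, adjusted p = 0.00742). Dusp1, a MAP kinase phosphatase, rose (0.67 ± 0.082, adjusted p = 0.00983). With fasting 8 of 16 were positive, against 51.7% of all genes, with a median of 0.05. Fbxo32 rose by 0.84 ± 0.070, while Sgk1, a serine/threonine kinase, fell by 0.46, Zbtb16, a zinc finger repressor, by 0.40 and Dusp1 by 0.47.

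Nearest to Gas5 in profile was Ezh1, a histone H3K27 methyltransferase of Polycomb complex PRC2, at 0.018 log2 units, followed by Slc12a2, a sodium-potassium-chloride cotransporter, and Tfpt at 0.046 each. Ezh1 read 1169, 994 and 1499 at 24 h on HF+SFC+ALA, HF and Control, against 969, 845 and 1121 at 4 h. Its HF difference was -0.50 ± 0.11 (adjusted p = 0.0757).

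Meg3, an imprinted RNA, changed in no comparison by the test. Its brightest probe set (1439380_x_at) read 1290, 859 and 869 at 24 h on HF+SFC+ALA, HF and Control, against 877, 830 and 924 at 4 h. The HF+SFC+ALA pool at 24 h stood apart, and the 5 other pools lay between 830 and 924. The fitted log2 differences were 0.17 ± 0.13 with fasting (adjusted p = 0.534), -0.09 ± 0.15 between HF and Control (0.83) and 0.33 ± 0.15 between HF+SFC+ALA and HF (0.97). The last of these was 0.045 without the HF+SFC+ALA pool at 24 h and 0.62 without the one at 4 h.

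The other Meg3 probe sets did not share this profile. The next brightest (1452905_at) read 460, 420 and 417 at 24 h, against 334, 307 and 379 at 4 h, and was higher at 24 h in every pair (0.35 on average, adjusted p = 0.231). Of the 5 above the filter, 4 had a higher mean at 24 h. The dimmest of the 5 (1436713_s_at) ran from 53.1 in the HF pool at 4 h to 137 in the HF pool at 24 h. The 6 below the filter had signals between 5.76 and 98.3 and were at the floor in 2 to 4 pools, so they carry no test. The profiles nearest to the brightest probe set were those of Nbn, a protein of DNA break repair, at 0.072 log2 units, and of Ttc23 and Washc4 at 0.074 each.

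**Figure D4:**
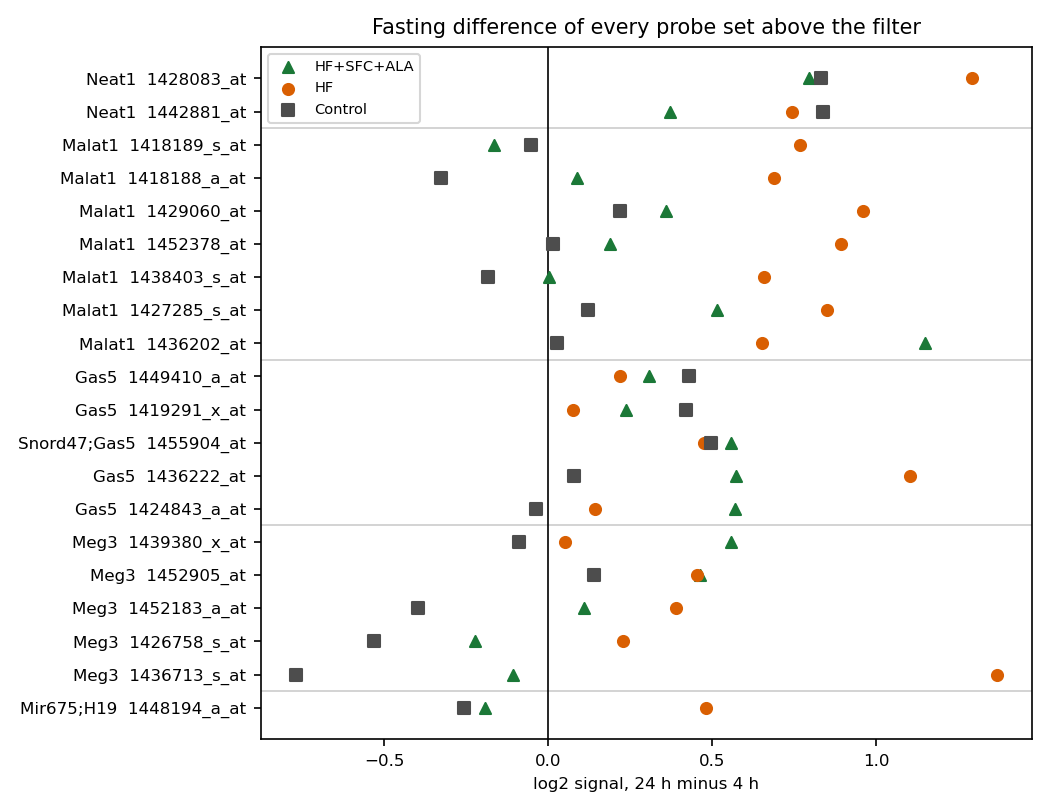
Log2 signal difference, 24 h minus 4 h (x axis), for the 20 probe sets above the filter (y axis, grouped by RNA); green triangles are the HF+SFC+ALA pair, orange circles the HF pair and grey squares the Control pair, each point being 1 pair of arrays. Both Neat1 probe sets lie right of 0 in all 3 pairs (0.37 to 1.29), and the HF pair lies right of 0 for all 7 Malat1 (0.65 to 0.96) and all 5 Meg3 probe sets (0.05 to 1.37).

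The probe set annotated to both Mir675 and H19 (1448194_a_at) is the only one for H19, and which of the 2 annotations its signal reflects cannot be told apart. The mature miR-675 RNAs lie inside the H19 gene and are shown because they share this signal's annotation; capitals mark the seed, bases 2 to 8 from the 5′ end (RefSeq, GRCm38.p6).
mmu-miR-675-5p, chr7:142577112-142577133, minus strand: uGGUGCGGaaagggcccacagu
mmu-miR-675-3p, chr7:142577078-142577099, minus strand: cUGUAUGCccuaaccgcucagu

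This probe set read 11506, 13436 and 8100 at 24 h on HF+SFC+ALA, HF and Control, against 13161, 9639 and 9671 at 4 h. The fasting groups overlapped, with a difference of 0.01 ± 0.13 (adjusted p = 0.981). Between HF and Control the difference was 0.36 ± 0.15 (adjusted p = 0.358), made up of 0.73 at 24 h and -0.00 at 4 h. With the 4 h HF pool left out, whose actin but not Gapdh ratio stood apart, it was 0.71. With the 24 h HF pool left out it was 0.011, with the 24 h Control pool left out 0.16, and with the 4 h Control pool left out 0.56. The difference passed the test in 1 of 13 alternatives. Between HF+SFC+ALA and HF it was 0.11 ± 0.15 (adjusted p = 0.988).

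The genes of the imprinted domains around Meg3 and H19 gave 0 calls among 4 above the filter. Igf2, the growth factor gene paired with H19, read 554, 587 and 648 at 24 h on HF+SFC+ALA, HF and Control, against 530, 443 and 675 at 4 h. Its HF difference was -0.38 ± 0.15 (adjusted p = 0.295). Rian, a noncoding RNA downstream of Meg3, gave 0.24 ± 0.21 with HF (adjusted p = 0.641) and -0.36 ± 0.17 with fasting (0.328). Dlk1 gave 0.34 ± 0.45 with HF (0.761).

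Of 10 maternally expressed imprinted genes above the filter 0 passed in any comparison. Of 14 paternally expressed ones, 1 fell with fasting and 1 rose with HF. Slc38a4, an amino acid transporter, read 2770, 2441 and 3018 at 24 h on HF+SFC+ALA, HF and Control, against 4945, 4918 and 5158 at 4 h (-0.87 ± 0.073, adjusted p = 0.00146). Mest, a gene known to rise in growing fat tissue, read 243 at 24 h and 320 at 4 h in HF pools. It read 114 at each time in Control pools, and its HF difference was 1.29 ± 0.23 (adjusted p = 0.0383 by limma). In HF+SFC+ALA pools it read 149 at 24 h and 176 at 4 h. The part of the adipocyte marker differences given above in that of Mest was not tested. Other long noncoding RNAs gave 0 calls among 15 above the filter. Norad, a cytoplasmic RNA that binds Pumilio proteins, differed by 0.10 ± 0.061 with fasting (adjusted p = 0.441) and by -0.08 ± 0.074 with HF (0.656).

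In the order of their 6 pools, steps between neighbours were set against the spread of a difference under the additive model. That spread is 1 standard deviation of such a difference, so a larger step is no test and does not settle the order of 2 pools. It rests on the residual standard deviation after eBayes, which borrows from other genes (7.27 prior against 2 residual degrees of freedom). For Neat1 this standard deviation was 0.12, and of the 5 steps only that between the Control and HF pools at 24 h was within the spread of a difference (0.16 against 0.17). For Gas5, with 0.087, the HF+SFC+ALA pool at 24 h did not differ beyond the spread from the Control pool at 4 h, nor the HF pool at 24 h from the HF+SFC+ALA pool at 4 h. For Malat1 (0.18) and Meg3 (0.15) only the top step exceeded the spread, and the 5 lower pools followed each other within it. For the Mir675 and H19 probe set (0.15, from the fit over probe sets) the top 3 pools followed each other within it.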

How the data were processed

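Signal was measured on 6 arrays, each 1 pool of gastrocnemius RNA. The authors deposited linear intensity values; the submitters' processing notes name MAS5, without version or settings. Of 45101 probe sets 64 controls were left out, 34945 of the rest had 1 gene symbol, 932 several and 9160 none listed. Symbols were updated through the gene identifier with RefSeq (GRCm38.p6).

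Values below a floor, the 30th percentile of signal (26.4), were raised to that floor, log2 was taken, the brightest probe set stood for a gene, and genes whose mean log2 signal was above the median of all probe sets (5.88) were kept: 11526 of 18193. Diet and fasting time entered as additive terms in limma 3.58.1 (R 4.3.3, eBayes with trend, 2 residual degrees of freedom), with Benjamini-Hochberg adjustment over all genes at 0.05. The eBayes prior, estimated over the genes kept, had 7.27 degrees of freedom. A second fit used 22518 probe sets. The fasting fit was also run on simulated data, whose outcome is not given here and is not used as support. Differences are on the log2 scale of signal, and the floor shrinks those of dim probe sets. The number of arrays limits the precision.

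The members and lists were chosen with earlier results of these data known. Named genes were the members, up to 4 called genes and the 2 brightest genes per list, some fixed genes, and the 3 nearest profiles; of the list genes only those bearing on the members are printed, and Snhg1, Snhg7, Snhg14, Snhg16 and Zfas1 were added after their values were seen. Alternatives were quantile normalization, 2 other filters, no floor, a pseudocount, other probe set rules, no trend, no second factor and each pool left out.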

Additional observations from a re-analysis of the deposited data

Results flagged for a closer look

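One probe set went at least 1.5-fold in opposite directions between single pairs of pools, which was not tested because each pair is 1 array against 1. It is the dimmest Meg3 probe set above the filter, 1436713_s_at. Between 24 h and 4 h its log2 difference was -0.11 on HF+SFC+ALA, 1.37 on HF and -0.77 on Control. Between HF and Control it was 1.16 at 24 h and -0.98 at 4 h. Between HF+SFC+ALA and HF it was -0.84 at 24 h and 0.64 at 4 h. These 3 comparisons share the HF pools, in which its signals were 137 at 24 h and 53.1 at 4 h. No other probe set of the members above the filter showed such an opposition.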

How the results depend on the processing

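The alternatives on pools counted by probe set or host gene, and the host list without 2410006H16Rik, were chosen after seeing the data. No paired analysis was possible because each combination of diet and fasting time is 1 pool, with no replicate number to pair by; the additive fit itself compares pools within a diet or within a fasting time. Leaving out a pool left 1 residual degree of freedom. Genes called with fasting numbered 278, and 0 without the filter, 18 with the mean over probe sets, 0 without the trend, 60 without diet, and 59 to 455 leaving out 1 pool; for HF against Control 102, and 0, 1, 0 and 0, and 47 to 592; for HF+SFC+ALA against HF 0, then 6 under a 65th percentile filter and 0 to 109 leaving out 1 pool. Counts without calls had 2026 (fasting, no filter), 1639 (fasting, no trend), 1993, 1348 and 982 (HF against Control: no filter, no trend, no fasting time) genes at an unadjusted p under 0.05. Genes at least 1.5-fold apart in every pair numbered 64 with fasting (127 without the filter), 256 with HF (630 without it, 109 at the 65th percentile) and 114 between HF+SFC+ALA and HF (425, 25, and 67 with the pseudocount). Quantile normalization turned the split of 180 higher and 76 lower with HF into 146 and 100, and that of 41 and 73 between HF+SFC+ALA and HF into 54 and 64.

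Neat1 kept its direction with fasting in all 15 alternatives (0.81 to 1.06) and Gas5 in all 15 with fasting (0.26 to 0.37) and HF (-0.59 to -0.32). Gas5 with fasting was called with quantile normalization (adjusted p = 0.0494), the 65th percentile (0.0401), and without either HF pool (0.0451 each), with adjusted p of 0.0401 to 0.407 over the alternatives. Neat1 with HF was called without the Control pool at 24 h (0.0158) or the HF pool at 24 h (0.0377), with 0.0158 to 0.812 over the alternatives. With the mean over probe sets, the sign turned for Neat1 with HF (0.11), for Meg3 with fasting (-0.072), HF (0.28) and HF+SFC+ALA against HF (-0.31), and for Gas5 in HF+SFC+ALA against HF (-0.066). Leaving out 1 pool gave, across a sign change, for fasting -0.11 to 0.36 (Malat1), -0.019 to 0.30 (Meg3) and -0.22 to 0.14 (Mir675 and H19); for HF against Control -0.43 to 0.44 (Malat1) and -0.28 to 0.11 (Meg3); and for HF+SFC+ALA against HF -0.67 to 0.21 (Malat1), -0.21 to 0.27 (Neat1) and -0.24 to 0.46 (Mir675 and H19). The cause was not tested.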
